A study of Homo sapiens with 36 samples.

Results

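Long noncoding and antisense RNAs were followed through a time course of copper exposure in 2 human cell lines. The genes described are those whose symbol begins with LINC (intergenic noncoding RNA), ends in -AS1 or -AS2 (antisense to the gene named before the hyphen) or ends in -IT1 (transcribed from an intron of that gene), and whose probe was detected above background, at a detection p below 0.01, on at least 2 of the 36 arrays. They were 160 of the 14678 genes tested and comprised 74 LINC, 80 AS1, 2 AS2 and 4 IT1 symbols. The arrays carry 299 symbols of this kind, so 139 did not pass the detection threshold and have no values here. Each gene was read from 1 probe, its brightest, and levels are log2 fluorescence after background correction and normalization, so that a difference of 1 is a 2-fold change. Probes differ in brightness, and the level of one gene is not set against that of another.

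HCT116, a human colorectal carcinoma line, was exposed to 1400 µM copper sulfate, with 2 arrays each at 2, 4, 6, 12 and 18 h, and was set against untreated HCT116, with 2 arrays at 0 h, 2 at 6 h and 1 each at 2, 4, 12 and 18 h. BEAS-2B, a virus-immortalized human bronchial epithelial line, was exposed to 800 µM copper sulfate with the same numbers of arrays and was set against untreated BEAS-2B sampled in the same way. Because each line had its own dose, a difference between lines may equally be one of dose. The labels do not say that replicates were separate cultures, so the p-values may measure technical spread only, and the single untreated arrays at 4 of the times limit the precision of every effect at one time. A copper effect is copper minus untreated at the same time, averaged over the 5 times unless a time is named. A gene is called higher or lower where its adjusted p in the limma fit over all 14678 genes is below 0.05. A fold given as at least a value sets levels of the undetected side that lie under the array's detection floor to that floor. The floor is the lowest level of any detected probe on the array. An undetected probe can lie above it, so such a fold is not a strict lower limit.

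Long noncoding RNAs are transcribed like messenger RNAs, and many are spliced and polyadenylated, but they are not known to encode proteins. An antisense RNA is read from the strand opposite a named gene and may start beside that gene's promoter or far inside it. Many noncoding RNAs stay in the nucleus and turn over quickly, and some serve mainly as carriers of small nucleolar RNAs in their introns.

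Promoter sequences are shown for the members on which the results turn: ZBTB11-AS1 and BCL10-AS1, each with the gene it is named after, because one pair moved apart and the other together, MRPL20-AS1, which had the largest fall in BEAS-2B, and ITPK1-AS1, a bright gene that rose in both lines. Each sequence runs from 250 bases before to 50 after the annotated start, 5′ to 3′ on the gene's own strand, from RefSeq on GRCh38.p14. Of the 160 noncoding genes, 122 had such a window. Capitals mark matches on either strand to paired heat shock units (GAANNTTC and TTCNNGAA, which can overlap each other), metal response element cores (TGCACNC and TGCGCNC), the antioxidant response element core (TGACNNNGC), the AP-1 site (TGANTCA) and the cyclic AMP response element (TGACGTCA). The windows are ZBTB11-AS1 at chr3:101676180-101676479 (plus strand), ZBTB11 at chr3:101677083-101677382 (minus strand), BCL10-AS1 at chr1:85276108-85276407 (plus strand), BCL10 at chr1:85276583-85276882 (minus strand), MRPL20-AS1 at chr1:1399280-1399579 (plus strand) and ITPK1-AS1 at chr14:93067202-93067501 (plus strand).
ZBTB11-AS1: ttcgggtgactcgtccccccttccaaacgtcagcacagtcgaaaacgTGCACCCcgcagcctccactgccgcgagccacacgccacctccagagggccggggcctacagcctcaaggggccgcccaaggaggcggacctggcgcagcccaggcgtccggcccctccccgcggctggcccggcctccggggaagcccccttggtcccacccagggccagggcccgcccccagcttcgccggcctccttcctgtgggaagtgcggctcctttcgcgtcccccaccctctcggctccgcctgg
ZBTB11: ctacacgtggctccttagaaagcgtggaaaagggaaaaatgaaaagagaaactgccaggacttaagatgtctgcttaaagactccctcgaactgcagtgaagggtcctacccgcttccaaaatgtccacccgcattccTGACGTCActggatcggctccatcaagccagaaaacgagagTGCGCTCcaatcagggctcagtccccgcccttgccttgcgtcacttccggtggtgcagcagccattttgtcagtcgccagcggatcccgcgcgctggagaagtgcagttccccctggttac
BCL10-AS1: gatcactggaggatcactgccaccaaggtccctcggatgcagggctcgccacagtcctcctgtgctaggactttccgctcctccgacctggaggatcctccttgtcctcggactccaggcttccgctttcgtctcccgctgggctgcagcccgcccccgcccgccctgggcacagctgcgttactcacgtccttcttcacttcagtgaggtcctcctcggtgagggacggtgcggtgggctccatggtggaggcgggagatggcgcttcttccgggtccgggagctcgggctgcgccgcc
BCL10: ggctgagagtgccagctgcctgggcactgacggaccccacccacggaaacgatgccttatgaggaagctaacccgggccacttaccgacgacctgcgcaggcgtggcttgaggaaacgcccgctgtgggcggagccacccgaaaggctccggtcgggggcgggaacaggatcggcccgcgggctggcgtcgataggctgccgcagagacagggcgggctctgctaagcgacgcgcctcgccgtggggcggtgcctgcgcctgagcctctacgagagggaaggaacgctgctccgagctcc
MRPL20-AS1: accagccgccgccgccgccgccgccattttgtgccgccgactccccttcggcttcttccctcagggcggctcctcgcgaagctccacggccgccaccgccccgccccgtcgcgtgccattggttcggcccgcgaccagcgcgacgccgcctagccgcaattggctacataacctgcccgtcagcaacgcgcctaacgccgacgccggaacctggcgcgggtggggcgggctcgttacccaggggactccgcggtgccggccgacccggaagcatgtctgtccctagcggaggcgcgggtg
ITPK1-AS1: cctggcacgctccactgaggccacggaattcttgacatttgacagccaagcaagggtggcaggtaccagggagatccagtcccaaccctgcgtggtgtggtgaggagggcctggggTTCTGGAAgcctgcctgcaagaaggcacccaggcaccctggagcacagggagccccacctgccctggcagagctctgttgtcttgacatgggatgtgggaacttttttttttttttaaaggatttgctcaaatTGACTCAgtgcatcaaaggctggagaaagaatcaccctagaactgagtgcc

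The ZBTB11-AS1 window held 1 match to TGCACNC, and the ZBTB11 window held 1 match to TGCGCNC and 1 to TGACGTCA. The ITPK1-AS1 window held 1 match to TTCNNGAA and 1 to TGANTCA. The windows of BCL10-AS1, BCL10 and MRPL20-AS1 held 0 matches, which says only that these letters are not there. Over the 122 noncoding genes TGCACNC was in 14.8%, against 11.9% of all 27305 promoter windows, TGCGCNC in 16.4%, against 20.0%, and TGACNNNGC in 18.9%, against 13.6%. The heat shock unit GAANNTTC was in 3.3%, against 6.87%, TTCNNGAA in 3.3%, against 7.84%, TGANTCA in 4.9%, against 7.76%, and TGACGTCA in 0.0%, against 1.98%. In the 24 windows of members called higher in a line and the 16 of members called lower, TGCGCNC was in 5 and 2, TGACNNNGC in 5 and 5, TGCACNC in 0 and 5, and TGANTCA in 1 and 2. GAANNTTC was in 0 and 1, TTCNNGAA in 1 and 0, and TGACGTCA in 0 of either. These splits are counts of letters that were not tested, and no match was tested as a binding site.

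The lines were set against marker genes of their labelled tissues. Of 5 colon epithelial markers, every HCT116 array detected EPCAM and CDH1, 6 copper and 8 untreated ones CDX2, 4 and 5 KRT20, and 0 CDX1. In BEAS-2B every array detected EPCAM too, 0 detected CDH1, 4 copper and 0 untreated ones CDX1, and 1 copper and 1 untreated one each CDX2 and KRT20. Of 5 mesenchymal markers, every BEAS-2B array detected all, while every HCT116 array detected VIM, 2 copper and 6 untreated ones TWIST1, 1 CDH2, and 0 FN1 or SPARC. Of 6 airway basal-cell markers listed, 2 were tested, and KRT5, KRT14, KRT17 and TP63 were not. KRT15 went against the bronchial label of BEAS-2B: it was detected on 1 of 10 copper and 0 of 8 untreated BEAS-2B arrays but on every HCT116 array. NGFR was detected on 2 copper and 0 untreated BEAS-2B arrays and on 0 HCT116 arrays, too few to set the lines apart. HMOX1, the heme oxygenase gene that oxidative and metal stress induces, had levels of 11.70 to 13.40 in HCT116 with copper, against 7.47 to 8.62 untreated, and 12.75 to 14.02 in BEAS-2B with copper, against 6.49 to 7.00 untreated. The share of all tested genes detected at 12 and 18 h was 58.9% to 65.2% in HCT116 with copper, against 73.7% to 75.9% untreated, and 66.3% to 69.1% in BEAS-2B with copper, against 75.1% to 76.5% untreated. Of 3 leukocyte markers, PTPRC was detected on 1 array of each line and CD79A on 2 copper and 3 untreated arrays in HCT116 and on 1 and 1 in BEAS-2B. CD14 was detected on 10 copper and 2 untreated arrays in HCT116 and on 10 and 8 in BEAS-2B, and was called higher with copper in both lines (1.90 and 0.85). The summed level of the 3 was 14.7 to 18.0 in HCT116 with copper, against 13.5 to 14.9 untreated, and 16.5 to 18.8 in BEAS-2B with copper, against 16.1 to 16.9 untreated. The part of these values in the results was not tested, and in whole-culture RNA fewer cells of a type and less RNA per cell cannot be told apart.

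Most of the 160 noncoding genes lay near the limit of detection. 15 were detected on all 36 arrays, 39 on 4 to 9 and 36 on 2 or 3. A single array detected 49 to 60 of them in HCT116 with copper, against 54 to 72 in untreated HCT116, and 60 to 83 in BEAS-2B with copper, against 63 to 85 in untreated BEAS-2B. At 12 and 18 h the ranges were 50 to 60 with copper, against 60 to 72 untreated, in HCT116, and 60 to 69, against 78 on both untreated arrays, in BEAS-2B. In HCT116 26 were detected on no array and 13 with copper alone, and in BEAS-2B 10 and 24. A gene that passed the threshold through one condition alone had to differ there, so the counts that follow describe the 160 and are set beside the same count over all genes.

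**Figure D1:**
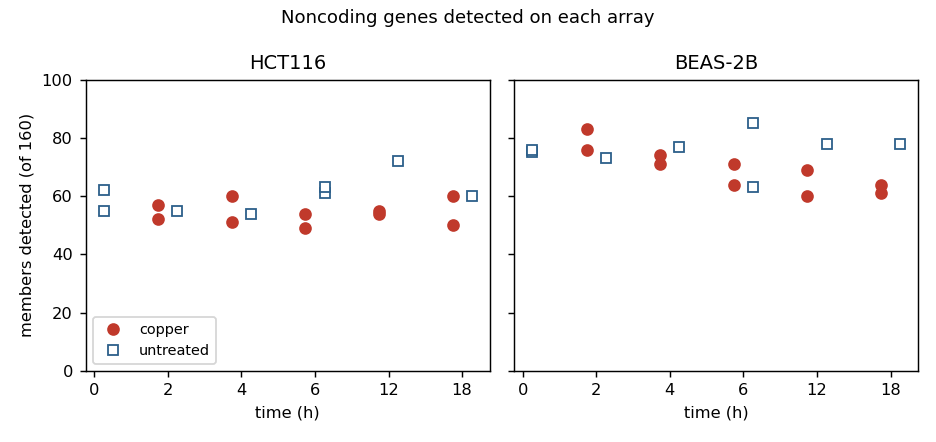
Number of the 160 noncoding genes detected on each array (y axis) at each time in hours (x axis) for HCT116 (left) and BEAS-2B (right). Each point is 1 array, copper filled and untreated open; counts run from 49 to 60 with copper and 54 to 72 untreated in HCT116, and from 60 to 83 with copper and 63 to 85 untreated in BEAS-2B.

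With copper, some noncoding genes rose and fewer fell. In HCT116 23 of the 160 were called higher, where 17.3% of all genes were, and 14 were called lower, where 29.1% of all genes were. In BEAS-2B 23 were called higher, where 18.5% of all genes were, and 17 were called lower, where 30.3% of all genes were. As shares of the 160 these are 14.4% higher and 8.75% lower in HCT116, and 14.4% higher and 10.6% lower in BEAS-2B, each below the share of all genes. Most noncoding genes were dim, and among genes detected both with and without copper the shares called higher were 21.5% of 93 members, against 19.6% of all such genes, in HCT116 and 16.5% of 109, against 20.2%, in BEAS-2B. The shares called lower there were 11.8% of members, against 34.4%, in HCT116 and 13.8%, against 35.3%, in BEAS-2B. The median copper effect over the 160 was 0.076, against -0.036 over all genes, in HCT116 and 0.053, against -0.041, in BEAS-2B. LINC genes gave 5 rises and 3 falls among 74 in HCT116, and 10 and 3 in BEAS-2B, while AS1 genes gave 15 and 11 among 80, and 11 and 14.

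Of the 53 members called in a line, 24 were called in both lines, each in the same direction. They were 14 that rose, which is 60.9% of the higher calls in each line, and 10 that fell, which is 71.4% of the lower calls in HCT116 and 58.8% of those in BEAS-2B. Over all genes the shared rises were 61.3% of the HCT116 list and 57.4% of the BEAS-2B list, and the shared falls 69.7% and 67% of them. The other 107 members were called in neither line.

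**Figure D2:**
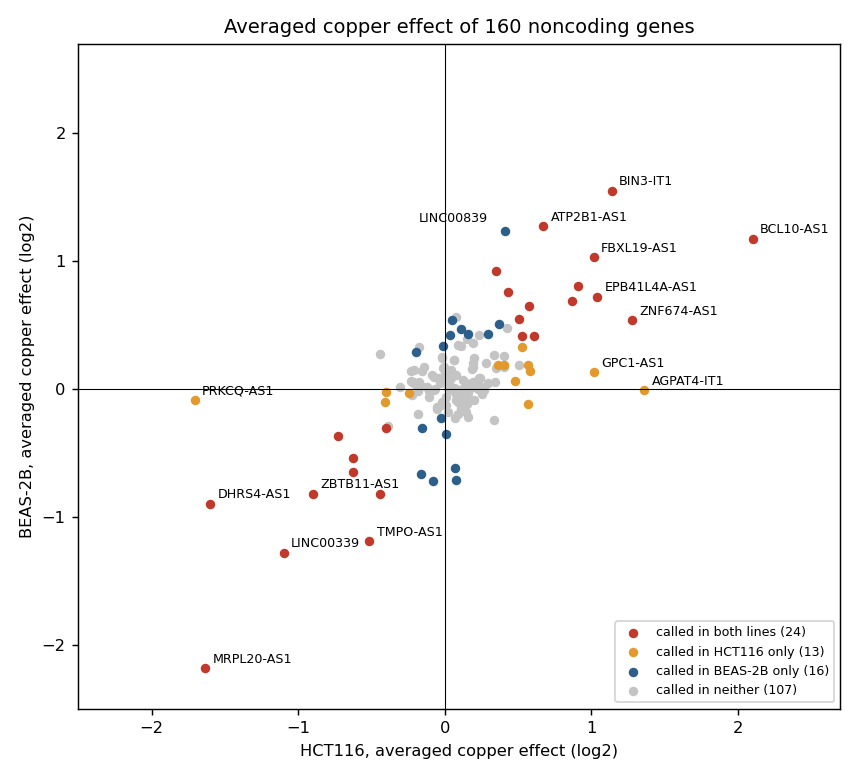
Averaged copper effect (log2, copper minus untreated) of each of the 160 noncoding genes in HCT116 (x axis) and BEAS-2B (y axis), coloured by the line in which it was called: 24 in both, 13 in HCT116 alone, 16 in BEAS-2B alone and 107 in neither. BCL10-AS1 lies highest and MRPL20-AS1 lowest along the diagonal, while AGPAT4-IT1 and PRKCQ-AS1 lie near 0 on the BEAS-2B axis; genes undetected on one side are drawn at fitted values that are not sizes.

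BCL10-AS1 had the largest rise in HCT116 among the called members detected there both with and without copper. BCL10, the gene it is named after, encodes an adaptor that relays receptor signals to NF-kappa-B. In HCT116 with copper BCL10-AS1 had 5.22 and 4.72 at 2 h, 6.00 and 6.29 at 4 h, 7.07 and 7.49 at 6 h, 8.19 and 8.16 at 12 h and 8.69 and 8.74 at 18 h, against 4.56, 5.03 and 5.49 (lowest, median, highest) on untreated arrays. In BEAS-2B with copper BCL10-AS1 had 5.62 and 5.25 at 2 h, 5.62 and 5.95 at 4 h, 6.40 and 5.64 at 6 h, 6.94 and 6.68 at 12 h and 7.18 and 7.33 at 18 h, against 4.76, 5.14 and 5.48 (lowest, median, highest) on untreated arrays. From 4 h on every copper array lay above every untreated array of its line, and at 2 h the groups overlapped. The averaged effect was 2.10 in HCT116 (SE 0.14, adjusted p = 5.97e-10) and 1.18 in BEAS-2B (SE 0.14, adjusted p = 1.08e-06).

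BIN3-IT1 comes from an intron of BIN3, the gene of a membrane-binding BAR-domain protein. It was detected on 8 of 10 copper and 0 of 8 untreated HCT116 arrays, and its levels were 4.68, 5.69 and 6.87 (lowest, median, highest) with copper, against 4.38, 4.54 and 4.67 untreated in HCT116. The HCT116 groups did not overlap, and the rise was at least 2.02-fold (adjusted p = 3.56e-05), counting untreated arrays at the detection floor. In BEAS-2B the levels were 4.63, 6.45 and 7.54 with copper, against 4.52, 4.61 and 5.44 untreated, with overlap at 2 h alone, and the effect was 1.55 (SE 0.18, adjusted p = 8.11e-07). A second probe of BIN3-IT1, lower in mean level but detected on 25 arrays against 20, gave 0.10 in HCT116 and 0.51 in BEAS-2B. Its probes thus disagree in size, and the HCT116 rise rests on the chosen probe.

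EPB41L4A-AS1, a host gene of a small nucleolar RNA, was bright on all arrays. Its levels in HCT116 were 10.51, 10.97 and 11.17 (lowest, median, highest) with copper, against 9.74, 9.92 and 10.19 untreated, every copper array above every untreated one, and the effect was 1.04 (SE 0.05, adjusted p = 2.13e-11). In BEAS-2B with copper EPB41L4A-AS1 had 8.88 and 8.74 at 2 h, 9.19 and 9.23 at 4 h, 9.24 and 9.30 at 6 h, 10.51 and 10.65 at 12 h and 11.07 and 10.93 at 18 h, against 8.85, 9.11 and 9.24 (lowest, median, highest) on untreated arrays. In BEAS-2B the copper arrays thus stood clear of the untreated ones at 12 and 18 h, and the averaged effect was 0.72 (SE 0.05, adjusted p = 2.59e-09).

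FBXL19-AS1, antisense to an F-box protein gene, rose by similar amounts, 1.02 in HCT116 (SE 0.13, adjusted p = 1.76e-06) and 1.03 in BEAS-2B (SE 0.13, adjusted p = 1.33e-06). Its levels were 5.75, 6.74 and 8.10 (lowest, median, highest) with copper, against 5.05, 5.58 and 6.01 untreated in HCT116, and 5.26, 6.49 and 7.56 with copper, against 5.12, 5.59 and 5.69 untreated in BEAS-2B, with overlap at 2 h. ZNF674-AS1 starts 69 bp from the zinc-finger gene ZNF674 and points away from it. Its levels were 4.75, 6.34 and 6.95 (lowest, median, highest) with copper, against 4.54, 4.68 and 5.14 untreated in HCT116 and 4.98, 5.44 and 6.26 with copper, against 4.66, 4.88 and 5.54 untreated in BEAS-2B, with effects of 1.28 (SE 0.17, adjusted p = 4.44e-06) and 0.54 (SE 0.17, adjusted p = 0.0131). In HCT116 2 of 8 untreated arrays detected ZNF674-AS1, so the 1.28 takes in undetected untreated levels.

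ATP2B1-AS1 overlaps the start of ATP2B1, the gene of a calcium pump of the plasma membrane. In BEAS-2B with copper ATP2B1-AS1 had 6.13 and 6.18 at 2 h, 6.35 and 6.46 at 4 h, 6.82 and 6.94 at 6 h, 8.71 and 8.42 at 12 h and 8.83 and 8.53 at 18 h, against 5.79, 6.08 and 6.68 (lowest, median, highest) on untreated arrays. The copper arrays were clear of the untreated ones from 6 h on, and the averaged effect in BEAS-2B was 1.27 (SE 0.13, adjusted p = 2.40e-07). In HCT116 its levels were 4.63, 5.38 and 6.07 (lowest, median, highest) with copper, against 4.45, 4.67 and 5.77 untreated and overlapped, and the rise was at least 1.51-fold (adjusted p = 3.89e-04), since no time-matched untreated array detected it.

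LINC01018, ITPK1-AS1 and RAMP2-AS1 were detected on all 36 arrays and rose in both lines. LINC01018 had 9.88, 10.44 and 11.49 (lowest, median, highest) with copper, against 9.29, 9.74 and 10.02 untreated in HCT116, and 11.13, 11.37 and 11.89 with copper, against 10.34, 10.56 and 11.02 untreated in BEAS-2B, where the groups did not overlap. Its effect was 0.91 in HCT116 (SE 0.08, adjusted p = 2.34e-08) and 0.81 in BEAS-2B (SE 0.08, adjusted p = 1.02e-07), although a dimmer probe detected on 2 arrays gave 0.09 and -0.02. ITPK1-AS1, named after an inositol phosphate kinase gene, had 10.84, 11.22 and 12.28 (lowest, median, highest) with copper, against 9.94, 10.62 and 10.86 untreated in HCT116, and 12.24, 12.46 and 12.74 with copper, against 11.39, 11.88 and 12.17 untreated in BEAS-2B, again without overlap in BEAS-2B. Its effects were 0.87 (SE 0.08, adjusted p = 2.03e-08) and 0.69 (SE 0.08, adjusted p = 3.78e-07). RAMP2-AS1, named after the gene of a receptor activity-modifying protein, rose by 0.53 in HCT116 and 0.42 in BEAS-2B.

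The remaining members called higher in both lines were smaller or dimmer. LINC02901 rose by 0.57 in HCT116 and 0.65 in BEAS-2B, LINC01300 by 0.61 and 0.42, TPT1-AS1 by 0.50 and 0.55, and SLC26A4-AS1 by 0.43 and 0.76. Without the 18 h arrays the calls of LINC02901 (0.301) and TPT1-AS1 (0.443) in HCT116, and of LINC01300 (0.085) and SLC26A4-AS1 (0.421) in BEAS-2B, were lost. TPT1-AS1 lost its BEAS-2B call without the 6 h arrays (0.438). The HCT116 call of SLC26A4-AS1 (adjusted p = 0.043) was lost on leaving out 14 of 28 single arrays, and its effect was 0.063 without the 18 h arrays. THUMPD3-AS1 was called higher by at least 1.08-fold in HCT116, a call lost without the 18 h arrays, and at least 1.62-fold in BEAS-2B. No untreated array detected it, so it passed the detection threshold through copper arrays alone and had to differ there.

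Other members were called higher in 1 line. GPC1-AS1, named after a glypican gene, had an effect of 1.02 in HCT116 (SE 0.28, adjusted p = 0.00553), beside 0.13 in BEAS-2B (SE 0.28, adjusted p = 0.747). In HCT116 4 copper and 4 untreated arrays detected it, none of them at 12 or 18 h. The average of 1.02 thus takes in times at which both sides were undetected. LINC00950 rose by 0.51 in BEAS-2B (SE 0.16, adjusted p = 0.0104), a call lost without the 12 h arrays (0.433), and had 0.37 in HCT116 (SE 0.16, adjusted p = 0.0619). MAPT-AS1, named after the tau gene, was detected on 3 copper and 0 untreated BEAS-2B arrays and on 0 in HCT116. It passed the detection threshold through those copper arrays alone and had to differ there. Its call in BEAS-2B (at least 1.33-fold) is therefore no support for a rise. Differences between the lines were not called for these 3.

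**Figure D3:**
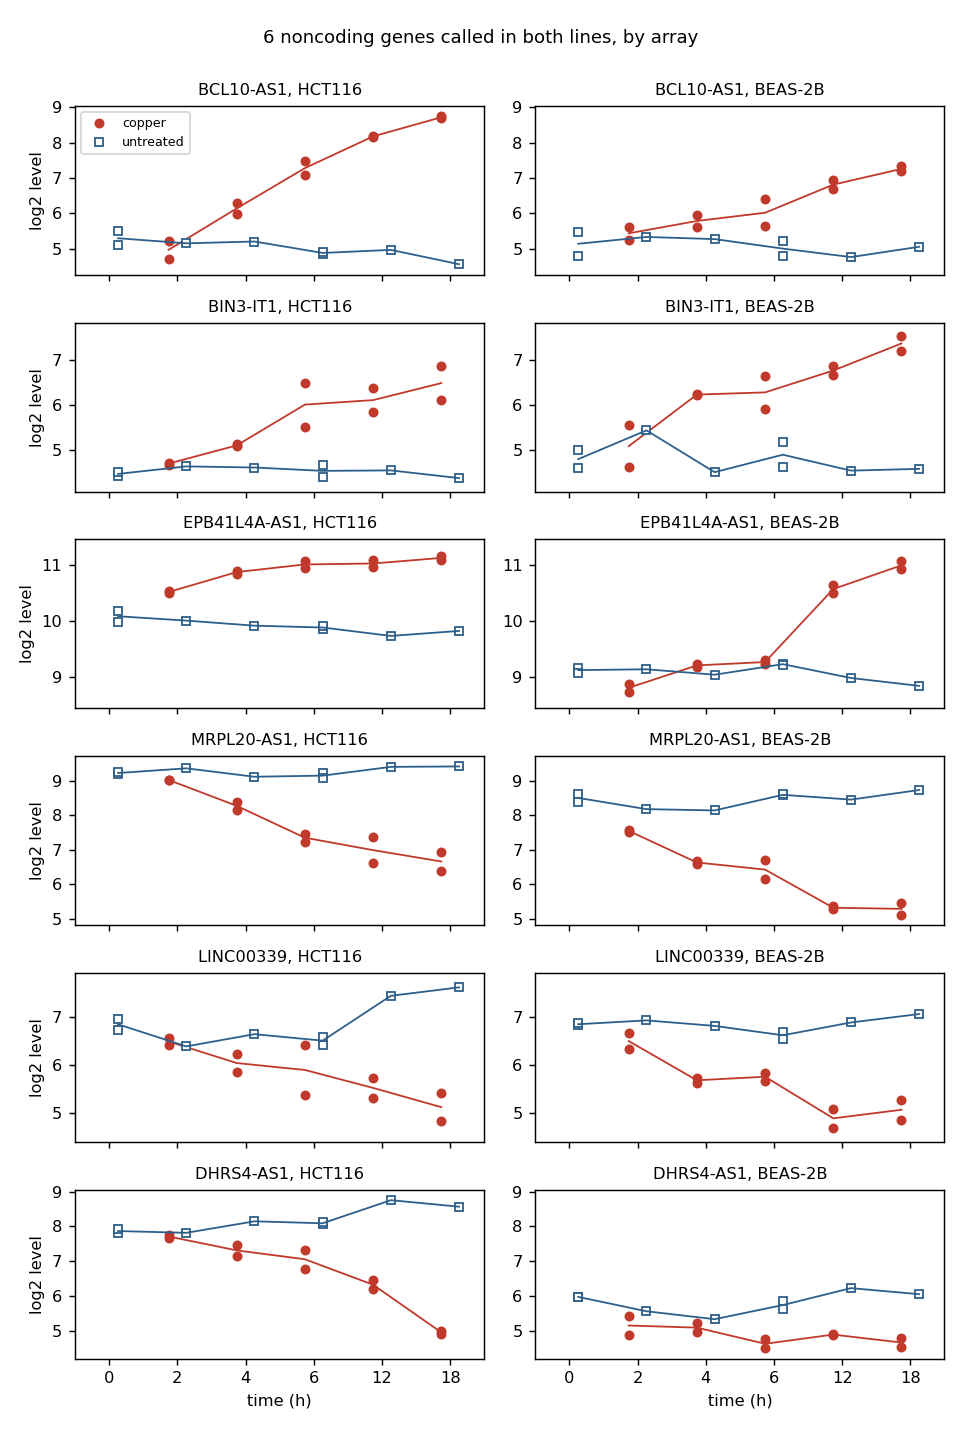
Log2 level (y axis) of 6 noncoding genes called in both lines on every array, by time in hours (x axis), in HCT116 (left) and BEAS-2B (right). Filled circles are copper arrays, open squares untreated arrays, and lines join the group means; BCL10-AS1, BIN3-IT1 and EPB41L4A-AS1 rise away from the untreated arrays and MRPL20-AS1, LINC00339 and DHRS4-AS1 fall away from them.

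MRPL20-AS1 had the largest fall in BEAS-2B. MRPL20 encodes a protein of the large subunit of the mitochondrial ribosome, and the starts of the 2 genes lie 7763 bp apart. In HCT116 with copper MRPL20-AS1 had 9.04 and 9.03 at 2 h, 8.40 and 8.16 at 4 h, 7.47 and 7.23 at 6 h, 7.36 and 6.62 at 12 h and 6.40 and 6.92 at 18 h, against 9.09, 9.25 and 9.42 (lowest, median, highest) on untreated arrays. In BEAS-2B with copper MRPL20-AS1 had 7.58 and 7.52 at 2 h, 6.67 and 6.6 at 4 h, 6.15 and 6.71 at 6 h, 5.37 and 5.27 at 12 h and 5.46 and 5.11 at 18 h, against 8.15, 8.52 and 8.74 (lowest, median, highest) on untreated arrays. In both lines every copper array lay below every untreated one, already at 2 h. The effect was -1.63 in HCT116 (SE 0.12, adjusted p = 1.39e-09) and -2.18 in BEAS-2B (SE 0.12, adjusted p = 2.38e-11).

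LINC00339, which lies near CDC42, the gene of a small GTPase of the cytoskeleton, had levels of 4.84, 5.79 and 6.57 (lowest, median, highest) with copper, against 6.39, 6.69 and 7.61 untreated in HCT116, and 4.71, 5.66 and 6.66 with copper, against 6.54, 6.85 and 7.06 untreated in BEAS-2B. Only copper arrays of 2 and 6 h reached the untreated range in HCT116, and 1 of 2 h in BEAS-2B. The effect was -1.10 in HCT116 (SE 0.14, adjusted p = 3.30e-06) and -1.28 in BEAS-2B (SE 0.14, adjusted p = 4.54e-07), and a second probe gave -1.56 and -1.35. DHRS4-AS1, named after a carbonyl reductase gene, had 4.92, 6.97 and 7.76 (lowest, median, highest) with copper, against 7.82, 8.09 and 8.75 untreated in HCT116 without overlap, and 4.51, 4.89 and 5.43 with copper, against 5.34, 5.91 and 6.23 untreated in BEAS-2B. Its effects were -1.60 (SE 0.10, adjusted p = 2.55e-10) and -0.90 (SE 0.10, adjusted p = 4.80e-07), with -1.27 and -0.52 from a second probe. In HCT116 8 of 10 copper arrays detected DHRS4-AS1, none at 18 h. In BEAS-2B 4 of 10 did, none at 6, 12 or 18 h. Both effects thus take in undetected copper levels.

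OIP5-AS1, a conserved noncoding RNA known for an extended pairing site for the microRNA miR-7, shared with MRPL20-AS1 that copper and untreated arrays did not overlap in either line. It had 8.34, 8.64 and 9.02 (lowest, median, highest) with copper, against 9.04, 9.25 and 9.59 untreated in HCT116, and 8.05, 8.44 and 8.63 with copper, against 8.78, 8.94 and 9.09 untreated in BEAS-2B. The effect was -0.62 in HCT116 (SE 0.09, adjusted p = 1.53e-05) and -0.54 in BEAS-2B (SE 0.09, adjusted p = 6.96e-05). TMPO-AS1 overlaps the start of TMPO, a gene of the nuclear lamina, and had 4.40, 4.47 and 4.98 (lowest, median, highest) with copper, against 4.51, 4.87 and 5.74 untreated in HCT116, and 4.44, 5.27 and 6.26 with copper, against 6.15, 6.42 and 7.10 untreated in BEAS-2B. Its effects were -0.51 (SE 0.09, adjusted p = 7.11e-05) and -1.19 (SE 0.09, adjusted p = 1.88e-09), and a dimmer probe gave -0.03 and -0.45. In HCT116 1 of 10 copper and 5 of 8 untreated arrays detected TMPO-AS1. In BEAS-2B 6 of 10 copper arrays did, none at 12 or 18 h. Both effects thus take in undetected copper levels.

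KRT10-AS1, named after a keratin gene, had effects of -0.44 in HCT116 (SE 0.07, adjusted p = 5.63e-05) and -0.82 in BEAS-2B (SE 0.07, adjusted p = 2.49e-08). The BEAS-2B groups did not overlap, while the mean of its probes took the HCT116 effect to -0.16 and out of the calls. FOXD2-AS1 had -0.63 in HCT116 and -0.65 in BEAS-2B, where 3 and 5 of 10 copper arrays detected it. VPS9D1-AS1 had -0.73 in HCT116 and fell at least 1.2-fold in BEAS-2B, and DLGAP1-AS1 fell at least 1.23-fold in HCT116 and had -0.30 in BEAS-2B, the bounds standing where no copper array detected the gene. LINC00294, detected on all 36 arrays, had -0.41 in HCT116 (SE 0.12, adjusted p = 0.00834) and -0.10 in BEAS-2B (SE 0.12, adjusted p = 0.556). The calls of VPS9D1-AS1 in BEAS-2B were lost without the 4 h (-0.232) or 6 h arrays (-0.296), and those of DLGAP1-AS1 without the 12 h arrays in HCT116 (-0.203) and without the 12 h (-0.164) or 18 h arrays (-0.172) in BEAS-2B.

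The copper effect itself was tested between the lines. It was called higher in HCT116 than in BEAS-2B for 11 members, where 12.8% of all genes were, and lower for 8, where 13.6% of all genes were. PRKCQ-AS1, named after the gene of protein kinase C theta, had 4.5, 4.87 and 5.99 (lowest, median, highest) with copper, against 6.30, 6.61 and 6.92 untreated in HCT116 without overlap, and 4.47, 4.67 and 5.89 with copper, against 4.67, 4.87 and 5.04 untreated in BEAS-2B. It fell in HCT116 (-1.71, adjusted p = 1.33e-09), where 4 of 10 copper arrays and all 8 untreated ones detected it. None of the 4 was at 12 or 18 h, so both values of size below take in undetected copper levels. It did not detectably fall in BEAS-2B (-0.09, adjusted p = 0.62), where 5 arrays detected it. The difference was -1.62 (SE 0.17, adjusted p = 1.23e-06). The fall of -1.71 shares that limit.

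AGPAT4-IT1, from an intron of an acyltransferase gene, had 5.01, 6.05 and 7.57 (lowest, median, highest) with copper, against 4.55, 4.79 and 5.10 untreated in HCT116, and 4.42, 4.95 and 5.37 with copper, against 4.53, 5.01 and 5.37 untreated in BEAS-2B. Its effect was 1.36 in HCT116 (SE 0.12, adjusted p = 2.27e-08) and -0.01 in BEAS-2B (SE 0.12, adjusted p = 0.969). In HCT116 all 10 copper and 2 of 8 untreated arrays detected it. In BEAS-2B no copper array of 12 or 18 h did. Both effects and the difference below thus take in undetected levels. The difference was 1.37 (SE 0.17, adjusted p = 7.65e-06), and a second probe gave 1.03 in HCT116 and -0.06 in BEAS-2B.

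In BEAS-2B with copper LINC00839 had 5.09 and 5.17 at 2 h, 5.10 and 5.21 at 4 h, 5.72 and 5.35 at 6 h, 7.94 and 7.62 at 12 h and 7.90 and 8.18 at 18 h, against 4.66, 5.02 and 5.35 (lowest, median, highest) on untreated arrays. The copper arrays of 12 and 18 h stood far above the rest, and the effect was 1.24 in BEAS-2B (SE 0.18, adjusted p = 1.40e-05), beside 0.41 in HCT116 (SE 0.18, adjusted p = 0.0758). The difference of -0.83 (SE 0.26, adjusted p = 0.0245) was not called without the 6, 12 or 18 h arrays. In HCT116 4 of 10 copper and 1 of 8 untreated arrays detected LINC00839, so that difference takes in undetected levels. BCL10-AS1 differed by 0.93 (SE 0.20, adjusted p = 0.00177) and TMPO-AS1 by 0.68 (SE 0.12, adjusted p = 4.37e-04). The difference of TMPO-AS1 takes in undetected copper levels in both lines. Among genes detected in BEAS-2B on most arrays and in HCT116 on 0, MORC2-AS1 (-0.71), ZFHX4-AS1 (-0.67) and ZNF667-AS1 (-0.62) fell in BEAS-2B, and their differences between lines, called higher, have no size. ATP2B1-AS1 (adjusted p = 0.0261) and THUMPD3-AS1 (adjusted p = 0.0129) were called lower in HCT116 than in BEAS-2B, also with no size, and both calls were lost without the 12 or 18 h arrays. LINC00938, detected on all 36 arrays, fell by 0.72 in BEAS-2B (SE 0.10, adjusted p = 4.04e-06) and had -0.08 in HCT116 (SE 0.10, adjusted p = 0.528).

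For some noncoding genes the copper effect changed between the early times, 2 and 4 h, and the late times, 12 and 18 h. In HCT116 the late minus early effect was called higher for 15 members, where 11.7% of all genes were, and lower for 11, where 21.2% of all genes were. In BEAS-2B it was called higher for 13, where 12.0% of all genes were, and lower for 10, where 21.3% of all genes were. Of these, 12 in HCT116 and 7 in BEAS-2B have no size, because a side of the difference was undetected. The effect of BCL10-AS1 in HCT116 was -0.18, 0.94, 2.40 and 3.21 at 2, 4, 6 and 12 h, and at 18 h it was at least 16.6-fold higher with copper, where the untreated array did not detect it. The effect of BCL10-AS1 in BEAS-2B was 0.10, 0.51, 1.01 and 2.20 at 2, 4, 6 and 18 h, and at 12 h it was at least 4.14-fold higher with copper, where the untreated array did not detect it. Of the 2 late untreated arrays of a line, 1 detected it in each. The late minus early difference of BCL10-AS1 was 3.31 in HCT116 (SE 0.33, adjusted p = 4.80e-07) and 1.82 in BEAS-2B (SE 0.33, adjusted p = 2.56e-04).

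In BEAS-2B several rises came between 6 and 12 h. The effect of ATP2B1-AS1 in BEAS-2B was -0.11, 0.47, 0.85, 2.55 and 2.61 at 2, 4, 6, 12 and 18 h. The effect of LINC00839 in BEAS-2B was 0.12, 0.45, 2.82 and 2.69 at 4, 6, 12 and 18 h, and at 2 h it was at least 1.09-fold higher with copper, where the untreated array did not detect it. The effect of EPB41L4A-AS1 in BEAS-2B was -0.33, 0.17, 0.04, 1.59 and 2.16 at 2, 4, 6, 12 and 18 h. LINC00839 was detected on 1 of the 2 early untreated arrays. Every copper array of 12 and 18 h lay above every earlier copper array for all 3. Their late minus early differences were 2.40 (SE 0.31, adjusted p = 1.05e-05), 2.63 (SE 0.42, adjusted p = 9.36e-05) and 1.96 (SE 0.13, adjusted p = 2.88e-09). The effect of EPB41L4A-AS1 in HCT116 was 0.51, 0.96, 1.13, 1.30 and 1.31 at 2, 4, 6, 12 and 18 h. There the rise was present at 2 h and grew little after 6 h.

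The falls deepened too. The effect of MRPL20-AS1 in HCT116 was -0.34, -0.85, -1.81, -2.42 and -2.76 at 2, 4, 6, 12 and 18 h. The effect of MRPL20-AS1 in BEAS-2B was -0.63, -1.51, -2.17, -3.14 and -3.45 at 2, 4, 6, 12 and 18 h. The effect of DHRS4-AS1 in HCT116 was -0.10, -0.83, -1.03 and -2.42 at 2, 4, 6 and 12 h, and at 18 h it was at least 12.1-fold lower with copper, where neither copper array detected it. Each fall was deeper at every later time than at the one before. The late minus early differences were -2.00 for MRPL20-AS1 in HCT116 (SE 0.27, adjusted p = 1.48e-05), -2.23 in BEAS-2B (SE 0.27, adjusted p = 4.84e-06) and -2.54 for DHRS4-AS1 in HCT116 (SE 0.23, adjusted p = 1.99e-07), where 2 of 4 late copper arrays detected it. LINC00339 changed by -1.95 in HCT116 (SE 0.33, adjusted p = 1.60e-04) and -1.21 in BEAS-2B (SE 0.33, adjusted p = 0.00796), and ZFHX4-AS1 by -1.06 in BEAS-2B (SE 0.24, adjusted p = 0.00214).

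LINC01018 rose late in HCT116, with a difference of 1.41 (SE 0.19, adjusted p = 1.18e-05). Called with no size were rises of ZNF674-AS1 (adjusted p = 0.00254), AGPAT4-IT1 (adjusted p = 1.89e-04) and BIN3-IT1 (adjusted p = 0.0074) and a fall of ZBTB11-AS1 (adjusted p = 6.28e-04) in HCT116, and in BEAS-2B a rise of BIN3-IT1 (adjusted p = 0.00236) and a fall of TMPO-AS1 (adjusted p = 4.09e-05). LINC02035, detected on all 36 arrays, changed by -1 in HCT116 (SE 0.36, adjusted p = 0.0382) and -1.06 in BEAS-2B (SE 0.36, adjusted p = 0.0281). Leaving out either array of copper 2 or 4 h, copper 12 h replicate 1 (-0.914) or copper 18 h replicate 2 (-0.713) ended its call in HCT116, as did replicate 2 of copper at 2, 4, 12 (-0.887) or 18 h in BEAS-2B. Without the 18 h arrays 14 members, in place of 23, were called higher on average in HCT116.

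**Figure D4:**
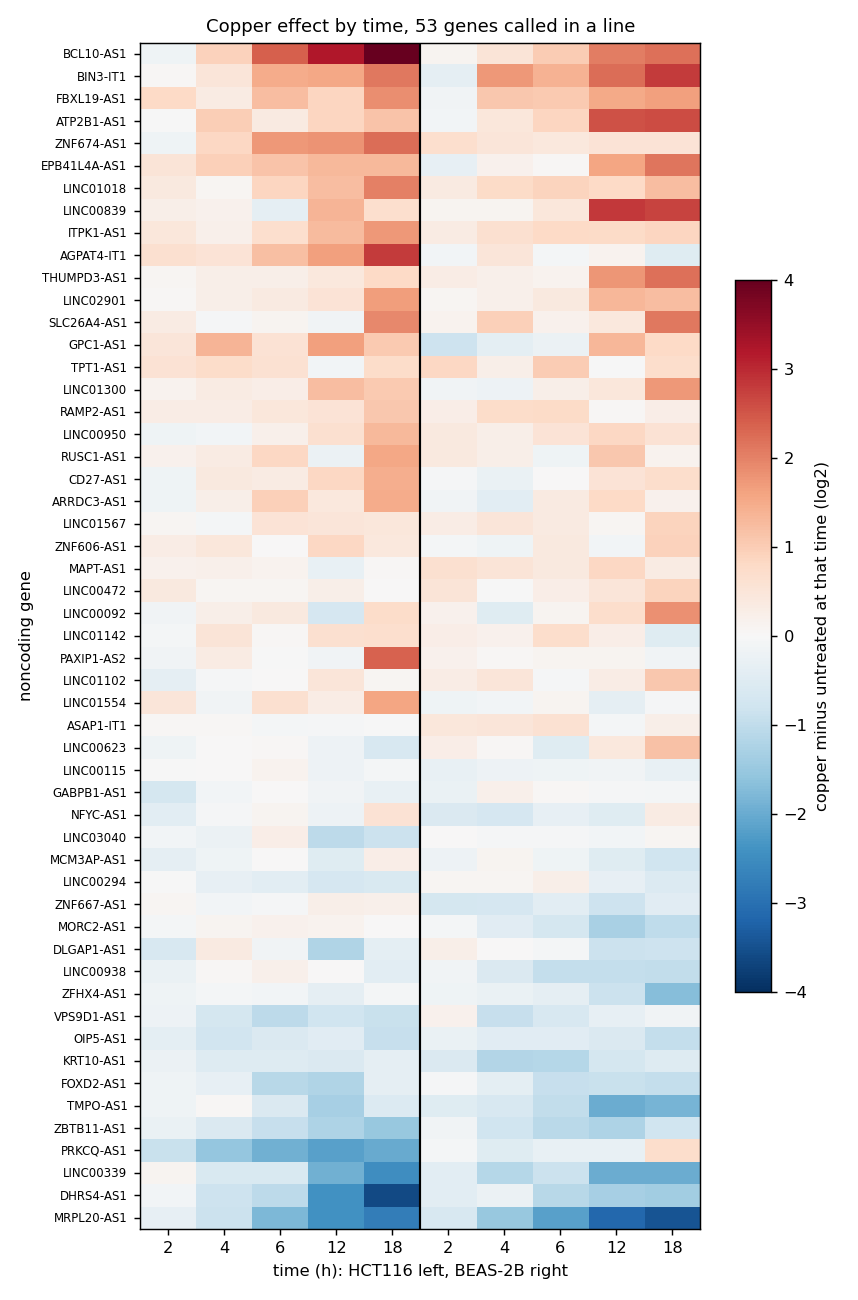
Copper minus untreated (log2, colour) at each time in hours (columns, HCT116 left and BEAS-2B right) for the 53 noncoding genes called in a line (rows). Colours deepen towards the late times at both ends of the list, as for BCL10-AS1, -0.18 at 2 h and 3.21 at 12 h in HCT116, and MRPL20-AS1, -0.34 at 2 h and -2.76 at 18 h; cells in which either side was undetected show fitted values that are not sizes.

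Antisense and intronic members were set beside the gene in their name. Of 86 such members, 71 had that gene tested. Of these 71 genes 12.7% were called higher and 38.0% lower in HCT116, where 17.3% and 29.1% of all genes were, and 18.3% and 38.0% in BEAS-2B, where 18.5% and 30.3% were. In HCT116 member and named gene were both called higher for 4 pairs (BCL10-AS1, BIN3-IT1, EPB41L4A-AS1 and ZNF674-AS1), both lower for 4 (FOXD2-AS1, MRPL20-AS1, OIP5-AS1 and TMPO-AS1), member higher and gene lower for 4, member lower and gene higher for 3. The member alone was called for 11, the gene alone for 21 and neither for 24. In BEAS-2B both were called higher for 4 (ASAP1-IT1, BCL10-AS1, BIN3-IT1 and ITPK1-AS1), both lower for 9, and in opposite directions for THUMPD3-AS1 and ZBTB11-AS1, while the member alone was called for 10, the gene alone for 25 and neither for 21. ASAP1-IT1 and THUMPD3-AS1 were detected on copper arrays alone, so the detection threshold itself favoured their higher calls. Across the 71 pairs Pearson's r of the effects was 0.214 in HCT116 and 0.324 in BEAS-2B, a description over genes read on the same arrays. The strand of the probes and their overlap with the other transcript of a pair were not checked here.

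ZBTB11-AS1 and ZBTB11, a zinc-finger transcription regulator, moved in opposite directions in both lines. Their starts lie 702 bp apart on opposite strands, so that the transcripts overlap. ZBTB11-AS1 had 4.49, 5.24 and 6.08 (lowest, median, highest) with copper, against 5.81, 6.09 and 6.39 untreated in HCT116, and 4.47, 4.83 and 5.71 with copper, against 5.32, 5.79 and 6.07 untreated in BEAS-2B. ZBTB11 had 7.30, 8.48 and 8.92 (lowest, median, highest) with copper, against 6.10, 6.66 and 7.03 untreated in HCT116, and 6.97, 7.87 and 8.28 with copper, against 5.68, 5.94 and 6.45 untreated in BEAS-2B. Every ZBTB11 copper array lay above every untreated one, while the antisense gene lay below them from 4 h on. ZBTB11-AS1 had effects of -0.90 in HCT116 (SE 0.08, adjusted p = 3.12e-08) and -0.82 in BEAS-2B (SE 0.08, adjusted p = 9.63e-08). Of 10 copper arrays a line, 6 detected it in HCT116 and 5 in BEAS-2B, none at 12 or 18 h. Both effects thus take in undetected copper levels. ZBTB11 had 1.79 (SE 0.11, adjusted p = 2.65e-10) and 1.81 (SE 0.11, adjusted p = 1.99e-10).

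BCL10-AS1 and BCL10, with starts 274 bp apart in the same overlapping arrangement, both rose. In HCT116 with copper BCL10 had 6.80 and 6.77 at 2 h, 7.86 and 8.03 at 4 h, 8.33 and 8.54 at 6 h, 7.47 and 7.2 at 12 h and 7.27 and 7.21 at 18 h, against 5.73, 5.97 and 6.63 (lowest, median, highest) on untreated arrays. BCL10 was highest at 6 h in HCT116, when BCL10-AS1 had not reached its highest level. The averaged effect of BCL10 was 1.47 in HCT116 (SE 0.08, adjusted p = 5.51e-11) and 0.84 in BEAS-2B (SE 0.08, adjusted p = 9.29e-08).

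**Figure D5:**
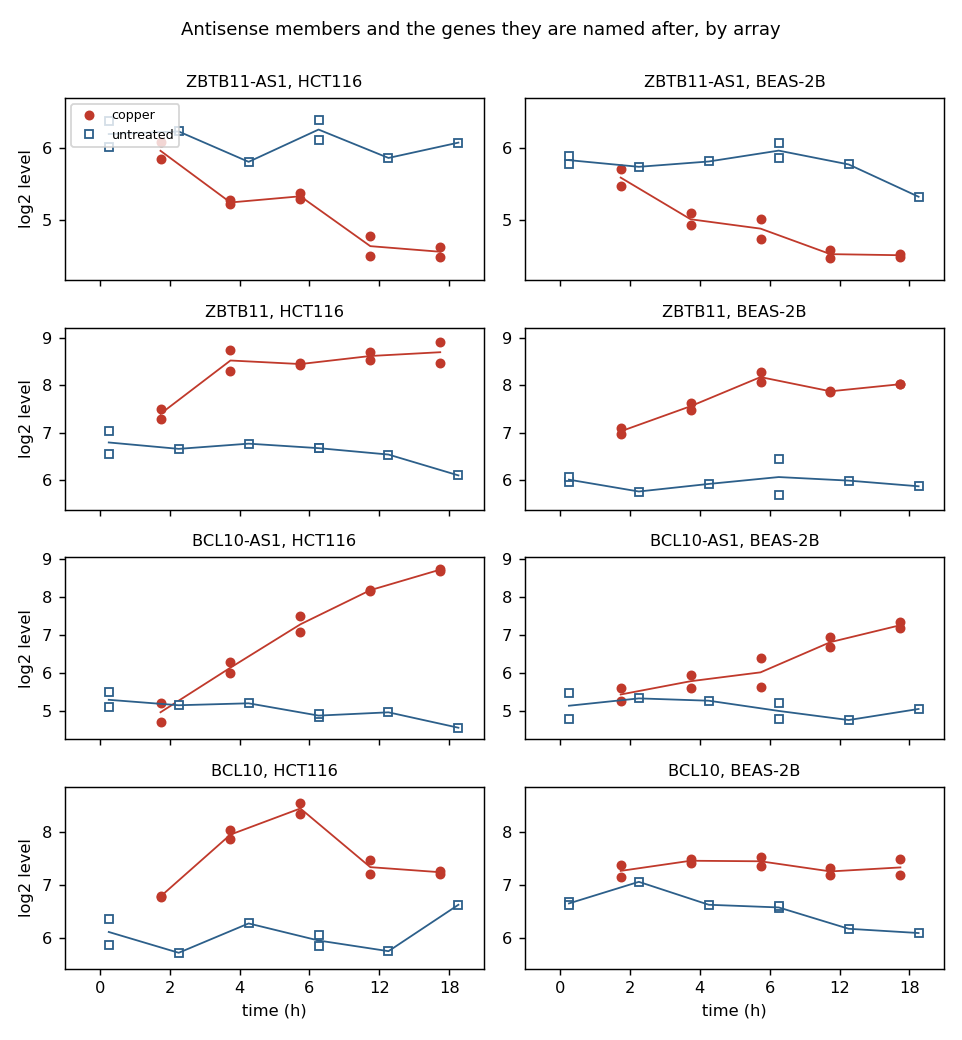
Log2 level (y axis) of ZBTB11-AS1, ZBTB11, BCL10-AS1 and BCL10 on every array by time in hours (x axis), HCT116 left and BEAS-2B right. Filled circles are copper arrays, open squares untreated arrays, and lines join the group means; ZBTB11 lies above its untreated arrays while ZBTB11-AS1 lies below them from 4 h, and in HCT116 BCL10 is highest at 6 h and BCL10-AS1 at 18 h.

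Other named genes moved with or against their partner. BIN3 rose at least 2.04-fold in HCT116 and by 1.77 in BEAS-2B (SE 0.12, adjusted p = 5.59e-10), beside BIN3-IT1, called higher in both lines from its chosen probe. MRPL20 had effects of -0.51 in HCT116 and -0.60 in BEAS-2B. FOXD2, a forkhead transcription factor gene, had -1.98 (SE 0.09, adjusted p = 2.76e-12) and -1.09 (SE 0.09, adjusted p = 7.51e-09). OIP5, a gene of centromere assembly, had -0.68 in HCT116 and -0.70 in BEAS-2B beside the falling OIP5-AS1.

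THUMPD3, a transfer RNA methyltransferase gene, had -0.59 in HCT116 and -0.67 in BEAS-2B, while THUMPD3-AS1, detected on copper arrays alone, was called higher. ATP2B1 had -0.72 in HCT116, where ATP2B1-AS1 rose, and 0.05 (SE 0.13, adjusted p = 0.778) in BEAS-2B. KRT10 had 0.50 in HCT116 and -0.52 in BEAS-2B, both called, while KRT10-AS1 fell in both. AGPAT4 had 0.08 (SE 0.11, adjusted p = 0.63) in HCT116, where AGPAT4-IT1 rose, and -0.97 (SE 0.11, adjusted p = 7.70e-07) in BEAS-2B.

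Several named genes were called in at least 1 line where their antisense or intronic partner was too. EPB41L4A, of the FERM-domain proteins, had 0.72 in HCT116 and 0.30 in BEAS-2B, called in HCT116 alone. MORC2, an ATPase gene of chromatin silencing, had -0.92 in HCT116 and -0.54 in BEAS-2B, and ZFHX4, a zinc-finger homeobox gene, -0.41 in HCT116 and -0.97 in BEAS-2B, all called. ITPK1 had -0.11 in HCT116 and 0.38 in BEAS-2B and ZNF674 0.24 in HCT116 and -0.01 in BEAS-2B, ITPK1 called in BEAS-2B and ZNF674 in HCT116. TMPO had -0.32 in HCT116 and -0.13 in BEAS-2B, called in HCT116, and DHRS4 -0.09 in HCT116 and -0.22 in BEAS-2B, called in BEAS-2B.

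The named genes of other members moved otherwise. GPC1 (0.07 in HCT116 and 0.50 in BEAS-2B), SERTAD4 (0.16 in HCT116 and 0.51 in BEAS-2B) and PRKCQ (0.12 in HCT116 and 0.29 in BEAS-2B) were called higher in BEAS-2B alone, PRKCQ at an adjusted p of 0.0366 that was lost on leaving out 7 of 28 single arrays. MAPT was called lower in HCT116 (-0.52) and was undetected on the BEAS-2B arrays compared. FBXL19 (-0.12 in HCT116 and 0.16 in BEAS-2B), RAMP2 (0.06 in HCT116 and -0.12 in BEAS-2B), VPS9D1 (-0.08 in HCT116 and -0.34 in BEAS-2B) and ZNF667 (0.14 in HCT116 and -0.03 in BEAS-2B) were called in neither line.

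Some pair counts rest on calls near the threshold. The HCT116 call of TMPO was lost with the replicate block (-0.292), with the mean of its probes (-0.174) and without the 4 h (-0.298) or 18 h arrays (-0.267). That of ZNF674 was lost without the 18 h arrays (0.165). In BEAS-2B the call of ITPK1 was lost without the 12 h arrays (0.237) and that of NFYC, beside NFYC-AS1, without the 18 h arrays (-0.184). DHRS4 in BEAS-2B was lost with the block (-0.21), the mean of probes (-0.157), without the 2 h (-0.139), 6 h (-0.186) or 18 h arrays (-0.194), and without untreated 6 h replicate 2 (-0.195), copper 2 h replicate 1 (-0.196) or copper 6 h replicate 2 (-0.176). Of the members, ASAP1-IT1 lost its BEAS-2B call with the block (0.283) and without the 4 h (0.301) or 6 h arrays (0.269), and MCM3AP-AS1 in 5 of 41 alternatives, the block among them (-0.289). GABPB1-AS1 lost its HCT116 call in 8 of 40 alternatives, among them without untreated (-0.205) or copper (-0.196) 6 h replicate 2.

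Untreated HCT116 and untreated BEAS-2B differed in a smaller share of noncoding genes than of all genes. In HCT116 21 of the 160 were called higher, where 29.8% of all genes were, and 22 lower, where 29.7% of all genes were. LINC00623 had 8.09, 8.35 and 9.07 (lowest, median, highest) in untreated HCT116, against 4.81, 5.58 and 6.05 in untreated BEAS-2B, a difference of 2.97 (SE 0.10, adjusted p = 7.87e-15). VPS9D1-AS1 had 7.13, 7.31 and 8.09 (lowest, median, highest) in untreated HCT116, against 4.61, 4.88 and 5.5 in untreated BEAS-2B, a difference of 2.51 (SE 0.12, adjusted p = 1.60e-12). The lines did not overlap for either gene, and 3 of 8 untreated BEAS-2B arrays detected VPS9D1-AS1. DHRS4-AS1 differed by 2.39, PRKCQ-AS1 by 1.77 and KRT10-AS1 by 1.21, all higher in HCT116. In the other direction SERTAD4-AS1 had 4.36, 4.65 and 5.22 (lowest, median, highest) in untreated HCT116, against 7.21, 7.82 and 8.09 in untreated BEAS-2B, a difference of -3 (SE 0.16, adjusted p = 6.28e-12). Only 1 of 8 untreated HCT116 arrays detected it, so the -3 sets BEAS-2B against mostly undetected levels. LINC00294 differed by -2.24 and TMPO-AS1 by -1.56, and ZFHX4-AS1 was at least 4.48-fold and MORC2-AS1 at least 2.64-fold lower in HCT116, which detected neither. ZFHX4-AS1 and MORC2-AS1 thus passed the detection threshold through BEAS-2B alone.

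Few members moved with time in untreated culture. In untreated HCT116 the 12 and 18 h arrays were called higher than those of 0 to 6 h for 7 members, where 7.96% of all genes were, and lower for 2, where 7.2% of all genes were. In untreated BEAS-2B they were called higher for 1, DLGAP1-AS1 (0.63, adjusted p = 0.00633), where 1.45% of all genes were, and lower for 0 by limma, where 1.91% of all genes were, with 4 lower at an unadjusted p under 0.05. LINC00339 (0.93, adjusted p = 0.00777) and DHRS4-AS1 (0.68, adjusted p = 0.00605) were higher on late untreated HCT116 arrays, the same arrays against which their late falls were measured. LINC01018 (-0.51) and ITPK1-AS1 (-0.51) were lower there, as the untreated side of their late rises. VPS9D1-AS1 (0.69) and LINC00623 (0.68) were higher there too. LINC03040, counted among the 7, came out at least 1.8-fold higher there. The only arrays that detected it were those of untreated HCT116 at 12 and 18 h. It passed the detection threshold through them alone and had to differ there, so its call is no support for a rise. The call of LINC00623 was lost with the mean of its probes (0.301).

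Long noncoding genes with other kinds of symbol were read from a list of 71, of which 39 were tested. In HCT116 12 (30.8%, where 17.3% of all genes were) were called higher and 8 (20.5%, where 29.1% were) lower, and in BEAS-2B 12 (30.8%, where 18.5% were) higher and 10 (25.6%, where 30.3% were) lower. RPPH1, the RNA of ribonuclease P, had 6.09, 6.86 and 8.24 (lowest, median, highest) with copper, against 4.84, 5.55 and 5.9 untreated in HCT116, and 6.10, 6.72 and 8.42 with copper, against 5.11, 5.43 and 5.96 untreated in BEAS-2B, without overlap in either line. Its effect was 1.54 in HCT116 (SE 0.11, adjusted p = 2.33e-09) and 1.72 in BEAS-2B (SE 0.11, adjusted p = 4.67e-10). RMRP, the RNA of RNase MRP, had 1.34 in HCT116 and 1.12 in BEAS-2B, and RN7SK, which holds the elongation factor P-TEFb inactive, had 0.93 and 1.39. These 3, all transcribed by RNA polymerase III, were called higher in both lines.

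Host genes of small nucleolar RNAs and microRNAs went both ways. SNHG4 had 1.09 in HCT116 and 0.45 in BEAS-2B, SNHG17 1.00 and -0.45, and SNHG11 -0.90 and -0.94, all called. MIR503HG had 4.53, 6.03 and 8.32 (lowest, median, highest) with copper, against 7.98, 8.51 and 9.12 untreated in BEAS-2B, an effect of -2.53 (SE 0.10, adjusted p = 6.24e-13). MIR100HG was called lower in HCT116 (-0.57) and higher in BEAS-2B (0.71). DLEU1 had -1.08 in HCT116 and -1.81 in BEAS-2B, and HCP5, from the major histocompatibility region, -1.43 and -1.28, all called lower. CRNDE was called lower in HCT116 (-0.56, adjusted p = 0.00277), and SNHG12 in BEAS-2B (-0.54, adjusted p = 0.0434), a call lost on leaving out 15 of 28 single arrays. KCNQ1OT1, an antisense transcript of an imprinted region, had 0.76 in HCT116 and 0.72 in BEAS-2B, called higher in both. The imprinted gene MEG3 rose in BEAS-2B (1.38, adjusted p = 9.99e-07), and HCT116 detected it on 1 copper and 1 untreated array.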

How the data were processed

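RNA of 36 samples was hybridized to Illumina bead arrays, 1 array per sample. Per the file headers, the authors deposited a non-normalized signal and a detection p-value for each probe and array. Read from the values, that signal is on a log2 scale from 5.89 to 14.49, with array means of 7.31 to 7.33, so a scaling between arrays before deposit is possible. BeadStudio is named in the submitters' processing notes, and its version and settings are not given in the sources used here. A second deposited table holds log2 values of the authors that the values show to be quantile-normalized, and it served as an alternative.

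The deposited signals were returned to a linear scale, then corrected for background by way of their detection p-values, brought to common quantiles and logged (log2) with neqc (offset 16) in limma 3.58.1 on R 4.3.3. Of 43960 probes, 13 had missing values, 29511 had 1 gene symbol, 0 several and 14449 none, and 29474 matched RefSeq by Entrez identifier. Probes detected at p below 0.01 on at least 2 arrays were kept, and the brightest stood for its gene, which gave 14678 genes. Group means of 22 groups (line, treatment and time) were fitted with lmFit and eBayes (14 residual degrees of freedom, prior 3.44), and p-values were adjusted by Benjamini-Hochberg over all genes. Where one side was undetected on all its arrays, its levels under the detection floor were set to that floor, and others kept their own value. The fold so reached is given as at least that value. Undetected levels can lie well above the floor: SERTAD4-AS1 reached 6.00 in HCT116 with copper, where 0 of 10 arrays detected it. Such a fold is therefore not a strict lower limit. Where both sides were undetected, no size is given. For a size, at least 1 array in each part of a comparison had to detect the gene, so a size can take in undetected levels.

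The genes named are, per line, the 10 largest rises and falls among called members whose 5 times share a sign, the 5 greatest differences in either direction in every other comparison, their named genes, and the 5 greatest in either direction of a list of other noncoding genes. Further members called in both lines, all called line differences with a size, and members and genes of pairs called together were named after their values were seen. Members and lists were chosen with earlier results of these data known. The fit was tested on simulated data. Alternatives were other normalization, filters, probe averaging, a replicate block, a trended robust fit, all untreated arrays as the comparison, and leaving out times or single arrays.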

Additional observations from a re-analysis of the deposited data

Results flagged for a closer look

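The averaged copper effect differed between the lines, by a test of the difference itself (HCT116 minus BEAS-2B, limma, adjusted over all genes), for 19 noncoding genes, of which 12 have a size. For a size, at least 1 copper and 1 time-matched untreated array of each line had to detect the gene. Such a size can take in undetected levels. Untreated HCT116 detected AGPAT4-IT1 on 2 and LINC00839 on 1 of 8 arrays. TMPO-AS1 in HCT116 and PRKCQ-AS1 in BEAS-2B were each detected on 1 of 10 copper arrays. The difference was 1.37 for AGPAT4-IT1, 0.93 for BCL10-AS1, 0.74 for ZNF674-AS1, 0.68 for TMPO-AS1, 0.64 for LINC00938, 0.55 for MRPL20-AS1, 0.38 for KRT10-AS1 and 0.32 for EPB41L4A-AS1. It was -1.62 for PRKCQ-AS1, -0.83 for LINC00839, -0.7 for DHRS4-AS1 and -0.49 for LINC00623. AGPAT4-IT1 rose in HCT116 and was not called in BEAS-2B, and PRKCQ-AS1 fell in HCT116 and was not called in BEAS-2B. On average BCL10-AS1, ZNF674-AS1 and EPB41L4A-AS1 rose in both lines and more in HCT116. At 12 and 18 h, however, the effect of EPB41L4A-AS1 was larger in BEAS-2B. DHRS4-AS1 fell in both lines and on average more in HCT116, but no BEAS-2B copper array of 6, 12 or 18 h detected it. On average TMPO-AS1, MRPL20-AS1 and KRT10-AS1 fell in both lines and more in BEAS-2B. For TMPO-AS1 that order takes in undetected levels. LINC00938 fell and LINC00839 and LINC00623 rose in BEAS-2B, and these 3 were not called in HCT116. Each line had its own dose, so line and dose are confounded in all 12.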

How the results depend on the processing

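Of 239 named values, 177 kept their direction and side of the threshold under every alternative run. Among 9563 recomputed values 220 lost and 33 gained a call, and 2 reversed, both of LINC03040 with no detection filter (0.287 in HCT116 and 0.275 for the difference between lines). Leaving out the 18 h arrays changed 34 values, against 20 without the 12 h arrays and 16 with the replicate block. The number of members called higher in HCT116 was 14 without the 18 h arrays, against 23. The number with a lower copper effect in HCT116 than in BEAS-2B was 8, and it was 5 with the replicate block, 2 without the 12 h arrays and 2 without the 18 h arrays. In untreated BEAS-2B over time, 1 member was called higher, and 2 with the strict detection filter, while 0 were called lower, and 1 with the authors' quantile-normalized values and 1 with no background correction. Leaving out 1 array at a time gave 21 to 27 higher and 14 to 17 lower in HCT116, 22 to 27 and 17 to 18 in BEAS-2B, 1 to 2 higher and 0 to 1 lower in untreated BEAS-2B over time, and 11 to 14 higher and 7 to 9 lower between lines.

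The differences between lines of LINC00839 (-0.818), LINC00623 (-0.391), FAM167A-AS1 (-0.341) and ZFHX4-AS1 (0.466) were lost with the replicate block. That of ZNF674-AS1 was lost without the 6 h (0.603), 12 h (0.614) or 18 h arrays (0.506), that of DHRS4-AS1 without the 18 h arrays (-0.326), that of EPB41L4A-AS1 without the 2, 4 or 6 h arrays (0.122 to 0.197), that of KRT10-AS1 with the mean of probes (0.267) or without the 4 h (0.307) or 6 h arrays (0.317), and that of MRPL20-AS1 with the authors' values (0.116), no background correction (0.116) or without the 12 h (0.505) or 18 h arrays (0.513). The rise of DLGAP1-AS1 in untreated BEAS-2B was lost with the authors' values (0.234). The causes were not tested. Replicate numbers showed no shared deviation over all genes: over 21 pairs of groups a line, the median correlation of same-numbered deviations was -0.000541 in HCT116 and 0.00182 in BEAS-2B, with 0 above 0.1. The labels do not say whether replicate numbers pair samples, and these correlations cannot settle it. A slide block was not run because the headers used here give no slide. Signal near background limits most members, and 4 of the times rest on 1 untreated array a line.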
